A study of Mus musculus with 12 samples.

Results

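Tubulin isotypes are the products of separate alpha and beta tubulin genes whose proteins pair into the subunits of microtubules. The genes described are Tuba1a, Tuba1b, Tuba1c, Tuba4a and Tuba8 for alpha tubulin and Tubb2a, Tubb2b, Tubb3, Tubb4b and Tubb6 for beta tubulin. They were chosen by gene symbol and made up 10 of the 53599 genes of the count table, and 9 of them passed the filter on low counts that left 16210 genes for testing. Tubb3 did not pass it.

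RNA was sequenced from 12 libraries of cells sorted from mouse liver, 3 in each of 4 groups. All mice were labelled WT and received AAV8-TBG-Cre, a virus in which the TBG promoter, active in hepatocytes, drives Cre recombinase for tracing hepatocytes by EGFP. From 1 week later they ate a diet with 0.1% DDC (3,5-diethoxycarbonyl-1,4-dihydrocollidine), which injures bile ducts, for 8 weeks. The early group held EGFP+ Cd24- Epcam- cells, the intermediate group EGFP+ Cd24+ Epcam- cells, the full group EGFP+ Cd24+ Epcam+ cells and the group labelled BEC EGFP- Epcam+ cells. The virus and the diet were thus shared by all groups, and no uninjured liver was among the samples. Age and sex, and whether the replicates came from separate mice, were not given in the sources used here, so the p-values measure the spread between these libraries.

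Alpha and beta tubulins are folded by chaperonins, assemble as heterodimers, and differ between isotypes mainly in their acidic C-terminal tails, which carry modifications and meet motors and other partners. Hepatocytes use microtubules to move secretory vesicles and to organise bile canaliculi, and cholangiocytes, the epithelial cells of bile ducts, also carry a primary cilium built on a microtubule axoneme. Tuba1a, Tubb2b and Tubb3 are known chiefly from the developing nervous system, Tuba1b, Tuba1c, Tubb4b and Tubb6 from many tissues, and Tuba8 is a divergent alpha tubulin.

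The 200 bases upstream of the annotated start are shown for genes that moved in different directions, from RefSeq on build GRCm38.p6, since members of opposite pattern can be set side by side there. The counts were made on GRCm39, so these windows serve as sequence only and were not joined to any coordinate of the count table. Tuba1a and Tuba1b were higher in every later group than in the early group, Tuba4a and Tuba8 were lower, and Tubb4b was highest in the early and BEC groups with TMM factors, though with total counts only its early level was the lowest (BEC against early log2 0.71). The windows lie at chr15:98953502-98953701 on the minus strand for Tuba1a, chr15:98934391-98934590 on the minus strand for Tuba1b, chr1:75219295-75219494 on the minus strand for Tuba4a, chr6:121210534-121210733 on the plus strand for Tuba8 and chr2:25224703-25224902 on the minus strand for Tubb4b. Capitals mark matches to a searched motif on either strand.
Tuba1a: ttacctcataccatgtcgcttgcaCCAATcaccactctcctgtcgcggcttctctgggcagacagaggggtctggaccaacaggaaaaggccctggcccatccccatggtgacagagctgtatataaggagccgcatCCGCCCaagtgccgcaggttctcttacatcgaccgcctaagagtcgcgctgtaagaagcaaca
Tuba1b: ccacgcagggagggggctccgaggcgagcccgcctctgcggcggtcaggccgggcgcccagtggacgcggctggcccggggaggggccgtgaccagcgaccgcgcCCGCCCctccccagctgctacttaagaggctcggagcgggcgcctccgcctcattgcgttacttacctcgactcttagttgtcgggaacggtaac
Tuba4a: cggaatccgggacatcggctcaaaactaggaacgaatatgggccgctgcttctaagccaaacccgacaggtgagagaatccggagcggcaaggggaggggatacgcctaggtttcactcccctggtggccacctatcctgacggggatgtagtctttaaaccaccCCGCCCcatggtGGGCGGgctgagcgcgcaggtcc
Tuba8: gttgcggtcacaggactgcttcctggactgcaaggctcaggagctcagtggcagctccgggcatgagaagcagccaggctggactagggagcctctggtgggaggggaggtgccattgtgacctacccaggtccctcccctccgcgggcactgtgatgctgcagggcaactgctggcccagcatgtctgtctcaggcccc
Tubb4b: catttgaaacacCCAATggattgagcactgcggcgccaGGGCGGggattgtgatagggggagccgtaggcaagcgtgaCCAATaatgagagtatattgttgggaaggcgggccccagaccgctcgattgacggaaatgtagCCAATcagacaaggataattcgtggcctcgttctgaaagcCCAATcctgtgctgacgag

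Motifs were searched as letters on both strands, and none of the strings contains another: the CCAAT box (CCAAT), the GC box (GGGCGG), the TATA box (TATAAA), an HNF4 site (CAAAGTCCA), the CRE (TGACGTCA), an AP-1 site (TGANTCA), a TEAD site (GGAATG) and an E-box (CACGTG). The promoter table held 8 of the 10 genes, without Tubb2b and Tubb6. The Tuba1a window held 1 CCAAT box and 1 GC box, and the Tuba1b window 1 GC box. The Tuba4a window held 2 GC boxes, and the Tuba8 window matched none of these letters. The Tubb4b window held 4 CCAAT boxes and 1 GC box. Tubb2a, not printed, matched 2 GC boxes, 1 TATA box and 1 CRE. Among all 32851 promoter windows of this length, 29.35% held a CCAAT box, 31.05% a GC box, 9.96% a TATA box and 1.47% a CRE. These matches describe the letters and were not tested as sites.

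Libraries held between 15112893 and 19731887 counts, so that 3 counts, taken as the detection floor, correspond to 0.128 to 0.273 CPM (counts relative to the library total, which was scaled by TMM factors). Intervals and floors cover counting error only. Cd24a averaged 3.20 CPM in the early group against 444 in intermediate, 1073 in full and 1072 in BEC, and Epcam 0.591, 18.8, 254 and 865 CPM, in the order of the sort gates. The summed level of 8 hepatocyte markers was 96769 to 98374 CPM across the early libraries and 2048 to 2625 CPM across BEC, and that of 9 biliary markers 1426 to 2452 and 15736 to 19285 CPM. Markers of other cells also differed between the groups: from early to BEC, 7 macrophage markers summed to 21.7 to 23.4, 29.4 to 33.4, 64.6 to 85.3 and 131 to 145 CPM. In BEC this was mostly Csf1r, which went from 3.94 CPM in early to 127. Cd68 was highest in early instead, at 13.9, 2.74, 1.62 and 3.46 CPM from early to BEC (BEC against early log2 -2.01, edgeR adjusted p = 1.14e-05). Clec4f, Marco, C1qa (2.41 CPM in BEC) and C1qb were not called in that comparison, and Adgre1 was not tested. In the same order 8 stellate and fibroblast markers summed to 97.4 to 280.0, 58.6 to 168, 45.5 to 75.2 and 51.3 to 89.2 CPM, and 6 endothelial markers to 13.8 to 20.6, 5.90 to 14.0, 1.91 to 4.28 and 1.44 to 6.25 CPM. Their part in the tubulin changes was not tested. Mitochondrial transcripts took 5.45% to 11.4% of counts in early, 3.99% to 4.75% in intermediate, 2.20% to 2.48% in full and 2.58% to 3.43% in BEC. The choice of scaling matters here. Scaled by total counts alone, the genome-wide median of intermediate against early was 0.72 on the log2 scale in place of 0.06, and that of full against intermediate 0.21 in place of 0.01. Among the genes called, the share that was higher then was 85.6% in place of 52.8% and 72.5% in place of 51.2%. BEC against full was hardly touched, with 50.3% in place of 50.1%.

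The largest isotype changes came between the early and intermediate groups. Tuba1a and Tubb2b rose from a few CPM to the level of the other main isotypes, Tuba1b rose by less, and Tuba4a, Tuba8 and Tubb4b fell, of which Tubb4b turned positive (log2 0.23) when libraries were scaled by total counts only. These 6 were called of 9 tested, 3 in each direction, at an adjusted p under 0.05 by edgeR's quasi-likelihood test with Benjamini-Hochberg adjustment over all genes. Of all genes, 54.4% were called in this comparison, 28.7% higher and 25.7% lower. With total counts only, 4 were higher (Tubb6 joined them) and 2 lower (Tuba4a and Tuba8). The median log2 fold change of the 9 was -0.22, against 0.06 over all genes. From intermediate to full 4 of 9 were called, 1 higher (Tuba1b) and 3 lower (Tuba4a, Tuba8 and Tubb6), beside 40.7% of all genes (20.8% higher, 19.8% lower), with a median of -0.48 against 0.01. In BEC against full 4 of 9 were called, 1 higher (Tubb4b) and 3 lower (Tuba1a, Tuba8 and Tubb2b), beside 21.3% of all genes (10.7% higher, 10.6% lower), with a median of -0.42 against 0.00. Against early, 8 of 9 were called in BEC, 3 higher and 5 lower, beside 73.0% of all genes (40.0% higher, 33.0% lower). In full against early 9 of 9 were called, 3 higher and 6 lower, beside 71.2% (39.1% higher, 32.1% lower). With total counts only these counts were 6 in each, and the lower calls then were those of Tuba4a and Tuba8. All 9 differed among the 4 groups by the F test, as did 75.6% of all genes. In bulk RNA, fewer cells that express a gene and less RNA per cell cannot be told apart.

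**Figure D1:**
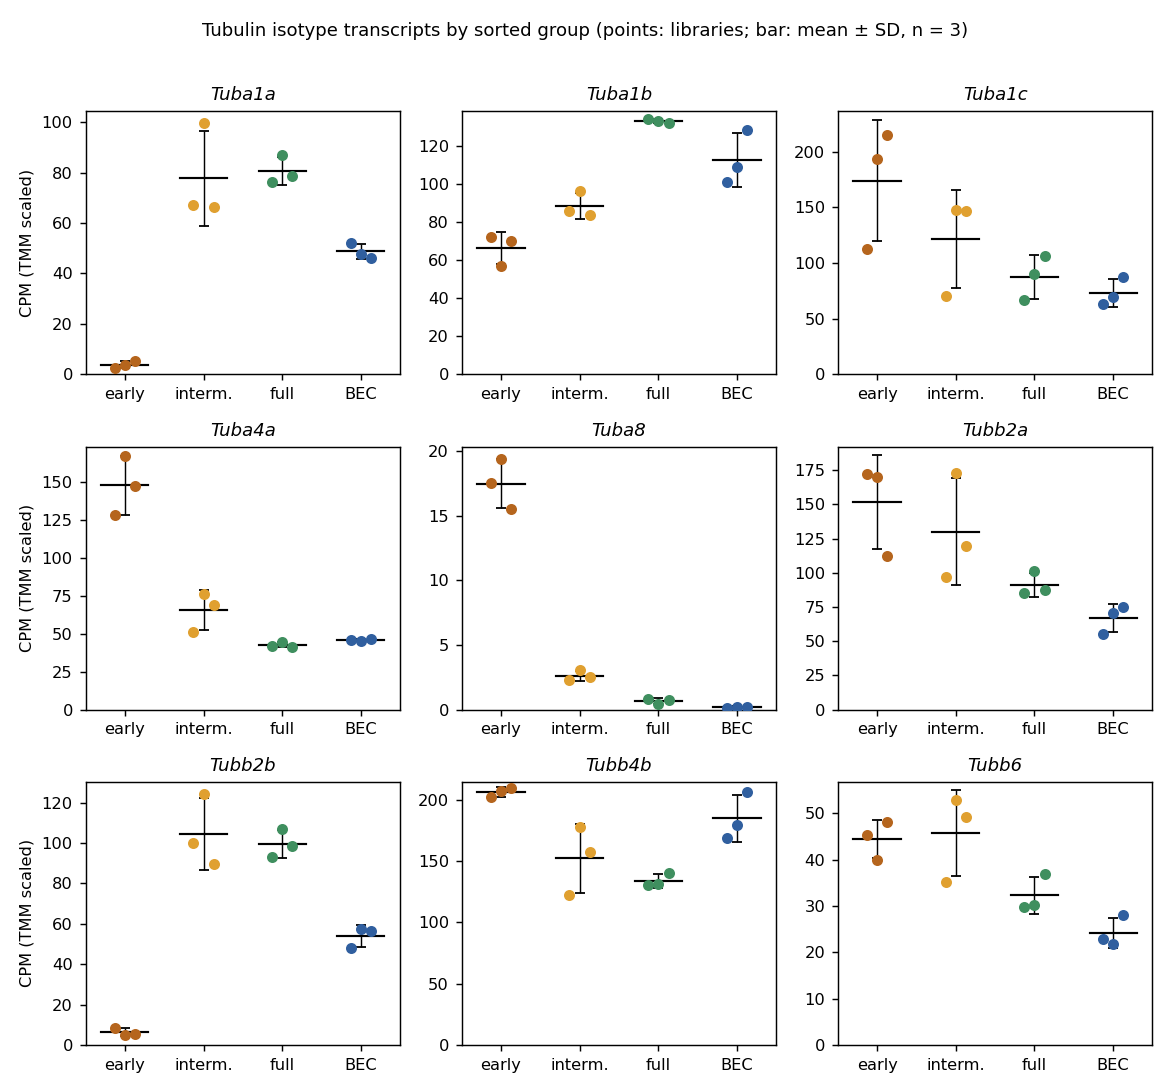
Level of each of the 9 tested tubulin genes in CPM scaled by TMM factors (vertical axis, from 0) in the early, intermediate, full and BEC groups; points are libraries and bars the mean ± SD (n = 3). Tuba1a and Tubb2b sit near 0 only in the early libraries, while Tuba4a and Tuba8 are highest there.

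Tuba1a, an alpha tubulin of growing neurons, had the lowest level per length of the 9 tested members in early (2.06 CPM per kb) and was close to Tuba1c in full (44.7 and 44.2 CPM per kb). Its level was 2.45, 3.54 and 5.17 CPM in the early libraries, 67.3, 99.5 and 66.5 CPM in intermediate, 76.2, 86.9 and 78.6 CPM in full and 52.2, 47.8 and 46.2 CPM in BEC. Every early library was far below every other one, intermediate and full overlapped, and BEC lay below both. The gene was 20.9-fold higher in intermediate than in early (log2 4.38, SE 0.22, edgeR adjusted p = 4.04e-09). It did not pass the test from intermediate to full (log2 0.05, SE 0.17, edgeR adjusted p = 0.843) and fell 1.65-fold from full to BEC (log2 -0.72, SE 0.17, edgeR adjusted p = 0.00758). Against early, BEC was still 13.1-fold higher (log2 3.71, SE 0.22, edgeR adjusted p = 2.75e-09).

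Tuba1b, a broadly expressed alpha tubulin, rose in both steps of the EGFP+ series. It measured 72.3, 57.1 and 70.1 CPM in early, 85.8, 96.6 and 83.9 CPM in intermediate, 135, 133 and 132 CPM in full and 101, 109 and 129 CPM in BEC. The 3 EGFP+ groups did not overlap with one another, and BEC lay between intermediate and full. Intermediate was 1.33-fold above early (log2 0.42, SE 0.11, edgeR adjusted p = 0.00599) and full 1.5-fold above intermediate (log2 0.59, SE 0.11, edgeR adjusted p = 0.000718). The step from full to BEC did not pass (log2 -0.24, SE 0.11, edgeR adjusted p = 0.153). The summed level of 24 mitotic genes ranged from 64.1 to 221 CPM in early, 33.2 to 61.9 in intermediate, 385 to 532 in full and 416 to 588 in BEC, so it moved with Tuba1b from intermediate to full but not from early to intermediate, and its part in the Tuba1b change was not tested.

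Tuba1c, a close relative of Tuba1b, had its highest mean in the early group and wide spread. Early libraries held 113, 194 and 216 CPM, intermediate 70.5, 148 and 147 CPM, full 66.7, 89.9 and 106 CPM, and BEC 62.9, 69.9 and 87.1 CPM. Neighbouring groups overlapped, and replicate 1 was the lowest library in each of the 4 groups. No neighbouring step passed in the fit without a replicate block, with edgeR adjusted p = 0.138 for intermediate against early (log2 -0.52, SE 0.28) and 0.200 for full against intermediate (log2 -0.48, SE 0.28). With the replicate number as a block, both steps passed, at log2 -0.53 (edgeR adjusted p = 0.00331) and -0.44 (edgeR adjusted p = 0.0151), and both passed without the filter on low counts (edgeR adjusted p = 0.0134 and 0.0203), but with total counts only the first turned positive (log2 0.14). The first also passed without early replicate 1 (edgeR adjusted p = 0.0324) and the second without intermediate replicate 1 (0.0254). BEC lay 2.37-fold below early (log2 -1.25, SE 0.28, edgeR adjusted p = 0.00131), a call lost with total counts only (log2 -0.38).

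Tuba4a, whose protein lacks the encoded C-terminal tyrosine of most alpha tubulins, fell in both EGFP+ steps and then stayed level. It held 129, 167 and 148 CPM in early, 51.0, 76.6 and 68.9 CPM in intermediate, 42.0, 44.5 and 41.5 CPM in full and 46.0, 45.0 and 46.4 CPM in BEC. The 3 EGFP+ groups did not overlap, and the full and BEC libraries lay close together. The fall was 2.26-fold to intermediate (log2 -1.17, SE 0.13, edgeR adjusted p = 5.25e-06) and a further 1.54-fold to full (log2 -0.62, SE 0.13, edgeR adjusted p = 0.00199). BEC against full gave log2 0.10 (SE 0.13, edgeR adjusted p = 0.682). On the reference annotation of GRCm38, 46.7% of the 100-base windows of the longest Tuba4a transcript also lie in Stk16 on the opposite strand. Stk16, a kinase gene, itself went from 82.9 ± 7.50 CPM in early to 57.4 ± 4.07 in intermediate (SD, n = 3; log2 -0.53, SE 0.10, edgeR adjusted p = 0.000342), and how far the authors' counting separates the strands is not given in the sources used here.

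Tuba8 fell at every step and was nearly lost from the BEC libraries. Its level was 17.5, 19.3 and 15.5 CPM in early, 2.26, 3.06 and 2.49 CPM in intermediate, 0.808, 0.401 and 0.743 CPM in full and 0.0962, 0.233 and 0.228 CPM in BEC. No 2 groups overlapped. The BEC values are 2, 5 and 5 counts, the first under the floor of 3 counts and the others just above it, against 192 to 222 counts in early. The successive falls were 6.68-fold (log2 -2.74, SE 0.25, edgeR adjusted p = 6.16e-07), 3.97-fold (log2 -1.99, SE 0.29, edgeR adjusted p = 9.55e-05) and 3.40-fold (log2 -1.77, SE 0.41, edgeR adjusted p = 0.00623). From early to BEC the fitted fall was 90.3-fold (log2 -6.50, SE 0.33, edgeR adjusted p = 5.68e-10). The last step could not be tested with the 6 libraries of full and BEC alone, since the gene then missed the filter on low counts.

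Among the beta tubulins, Tubb2b, an isotype of developing neurons, rose with Tuba1a. It held 8.46, 4.81 and 5.42 CPM in early, 100.04, 124 and 89.6 CPM in intermediate, 92.9, 107 and 98.5 CPM in full and 47.9, 57.6 and 56.5 CPM in BEC. Early stood apart, intermediate and full overlapped, and BEC was lower than both. Intermediate was 16.7-fold above early (log2 4.06, SE 0.19, edgeR adjusted p = 1.96e-09), and BEC 1.84-fold below full (log2 -0.88, SE 0.15, edgeR adjusted p = 0.000903). The step from intermediate to full did not pass (log2 -0.07, SE 0.15, edgeR adjusted p = 0.733), and its sign turned under scaling by total counts (log2 0.13). A set of 8 neural and Schwann cell markers summed to 27.5 to 30.5 CPM in early, 33.1 to 46.0 in intermediate, 35.5 to 43.3 in full and 40.7 to 49.1 in BEC. Most of that sum was Syt1, at a mean of 25.4 CPM in early and 31.5 in intermediate, while Elavl4 had 0 counts in all libraries and Sox10, Snap25 and Nefl stayed at means of 0.248 CPM or lower.

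Tubb2a, the near-identical neighbour of Tubb2b, did not follow it. Its level was 173, 170.1 and 112 CPM in early, 96.9, 173 and 119.8 CPM in intermediate, 84.9, 101 and 87.6 CPM in full and 55.4, 70.7 and 75.0 CPM in BEC. Early and intermediate overlapped, and the BEC libraries were below all others. No single step passed in the fit of all libraries, with log2 -0.22 (SE 0.20, edgeR adjusted p = 0.380), -0.51 (SE 0.20, edgeR adjusted p = 0.0609) and -0.44 (SE 0.20, edgeR adjusted p = 0.160), and the first was positive with total counts only (log2 0.45). With the replicate block the second passed (log2 -0.49, edgeR adjusted p = 0.0285), as it did without a filter on low counts (edgeR adjusted p = 0.00327) and without early replicate 3 (0.0366) or intermediate replicate 1 (0.0149). The third passed without the filter (edgeR adjusted p = 0.0103) and with the 6 libraries compared alone (0.0166). BEC lay 2.26-fold below early (log2 -1.18, SE 0.21, edgeR adjusted p = 0.000154), which was not called with total counts only (log2 -0.31). Per length, Tubb2b was 0.0209 to 0.0362 of Tubb2a in the early libraries, 0.530 to 0.762 in intermediate, 0.779 to 0.829 in full and 0.555 to 0.638 in BEC, a ratio within libraries that no scaling alters.

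Tubb4b is a widely expressed beta tubulin that is abundant in axonemes. When counts were divided by the longest transcript, it had the highest mean of the members in each group. These means were 129, 95.4, 83.7 and 116 CPM per kb from early to BEC, and Tuba1b followed in full with 76.6. In intermediate the place of Tubb4b depended on the length used: over the 5 beta members it took 38.3% against 31.9% for Tubb2a with the longest transcript, and 33.6% against 36.6% with the union of exons. It measured 202, 207 and 209.96 CPM in early, 122, 178 and 157 CPM in intermediate, 130.1, 131 and 139.9 CPM in full and 169, 179.7 and 206 CPM in BEC. The early libraries were above all intermediate and full ones, full lay within the range of intermediate, and BEC was above full. Relative to early it fell 1.35-fold in intermediate (log2 -0.44, SE 0.12, edgeR adjusted p = 0.00784), although with total counts only the sign was positive and the test did not pass (log2 0.23, edgeR adjusted p = 0.111). From full to BEC it rose 1.38-fold (log2 0.47, SE 0.12, edgeR adjusted p = 0.0130), a call lost without full replicate 2 (adjusted p = 0.0504) or BEC replicate 3 (adjusted p = 0.0652) in the same edgeR test. BEC against early did not pass (log2 -0.16, SE 0.12, edgeR adjusted p = 0.256), but turned into a rise with total counts only (log2 0.71, edgeR adjusted p = 1e-04).

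Tubb6, the class V beta tubulin, did not pass from early to intermediate and was lower than early in full and BEC with TMM factors, while with total counts only full was called higher than early (log2 0.40, edgeR adjusted p = 0.0263) and BEC did not pass (edgeR adjusted p = 0.958). Its values were 45.4, 39.9 and 48.0 CPM in early, 35.2, 52.9 and 49.1 CPM in intermediate, 29.8, 30.2 and 37.0 CPM in full and 23.0, 21.8 and 27.9 CPM in BEC. The BEC libraries lay below all others, and full was below early but overlapped with intermediate. Full against intermediate gave a 1.42-fold fall (log2 -0.50, SE 0.15, edgeR adjusted p = 0.0175). It did not hold with total counts only (log2 -0.30, edgeR adjusted p = 0.126) or without intermediate replicate 2 or 3 or full replicate 1 or 2, with edgeR adjusted p between 0.0612 and 0.0917. Intermediate against early did not pass (log2 0.04, SE 0.15, edgeR adjusted p = 0.835), and rose with total counts only (log2 0.71, edgeR adjusted p = 0.00105). BEC against full did not pass (log2 -0.42, SE 0.15, edgeR adjusted p = 0.0753) but did with the replicate block (edgeR adjusted p = 0.0269), without the filter (0.0192), with the 6 libraries alone (0.0288) and without intermediate replicate 1 (0.0286) or BEC replicate 3 (0.0465).

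The whole course from early to full can be read from the direct comparison of these groups, whose early libraries also serve the first step. Tuba1a (log2 4.43, SE 0.22), Tubb2b (3.99, SE 0.19) and Tuba1b (a 2.01-fold rise) were higher in full, with edgeR adjusted p of 6.96e-10, 4.08e-10 and 2.07e-06. Tuba8 (log2 -4.73, SE 0.28), Tuba4a (-1.79, SE 0.13) and Tuba1c (-0.99, SE 0.28) were lower, with edgeR adjusted p of 3.31e-09, 3.74e-08 and 0.0063, the last not called with total counts only (log2 -0.13). Tubb2a (log2 -0.73), Tubb4b (-0.63) and Tubb6 (-0.46) were lower with TMM factors but had positive values with total counts only (0.14, 0.24 and 0.40). Of these 3, Tubb6 was then called in the opposite direction, as given above, and the others did not pass (edgeR adjusted p = 0.542 and 0.0837). The call of Tubb6 was lost without early replicate 3, full replicate 1 or full replicate 2, with edgeR adjusted p from 0.0597 to 0.0625.

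Tubb3, the class used as a neuron marker, had 0 to 2 counts in each library, under the floor of 3 counts, so no comparison was made and its presence was not detectable at this depth.

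**Figure D2:**
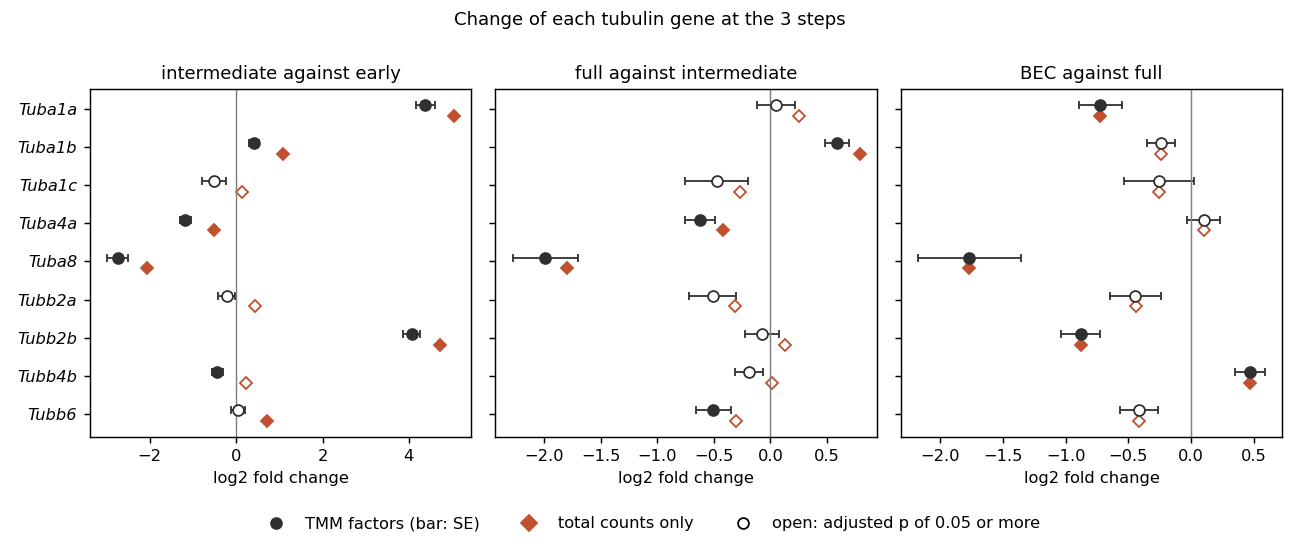
Log2 fold change (horizontal axis) of the 9 tested genes for the 3 neighbouring steps; dark points with bars are the estimates and SE with TMM factors, red diamonds the estimates with total counts only, and open symbols have an adjusted p of 0.05 or more. Tuba1a, Tuba1b, Tubb2b, Tuba4a and Tuba8 keep sign and call from early to intermediate under both scalings, while Tuba1c, Tubb2a and Tubb4b change sign there.

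The make-up of the alpha tubulin pool, which does not depend on the scaling of libraries, shifted from Tuba1c and Tuba4a towards Tuba1b and Tuba1a. Counts were divided by the length of the longest annotated transcript and expressed as a share of the 5 alpha genes. From early to BEC, Tuba1a took 1.08% ± 0.25, 24.1% ± 3.56, 24.7% ± 1.40 and 18.8% ± 2.71 of this pool (SD, n = 3). Tuba1b rose from 20.9% ± 5.59 to 29.0% ± 5.11, 42.5% ± 2.98 and 44.6% ± 1.60 in the same order. The Tuba1b shares of early (16.4% to 27.1%) and intermediate (26% to 34.9%) overlapped slightly, and those of full and BEC overlapped broadly. Tuba4a took 27.9% ± 2.80, 12.8% ± 0.29, 8.33% ± 0.52 and 11.2% ± 0.90. Tuba1c moved from 45.9% ± 7.61 to 33.4% ± 7.56, 24.3% ± 4.23 and 25.4% ± 1.99, with overlap between early and intermediate. Tuba8 made up 4.2% ± 0.91 in early and 0.056% ± 0.022 in BEC. In the early group Tuba1c was the leading alpha isotype per length, and in full and BEC it was Tuba1b. The summed alpha level was 188 ± 30.7 CPM per kb in early, 179.6 ± 36.4 in intermediate, 181 ± 10.8 in full and 145 ± 13.2 in BEC, and with total counts only 124 ± 21.8, 188 ± 38.2, 217 ± 14.5 and 175 ± 16.1.

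In the beta pool the shares were taken over all 8 beta genes, a denominator added after the data were seen because Tubb5, which is not among the 10 genes, holds much of it. Tubb5, the class I beta tubulin of dividing and many other cells, took 20.4% ± 1.53, 41.4% ± 4.87, 46.4% ± 1.56 and 39.7% ± 1.34 from early to BEC (SD, n = 3). Tubb4b fell from 41.0% ± 3.45 to 22.4% ± 2.15 and 21.5% ± 0.66 and stood at 35.3% ± 0.82 in BEC. Tubb2a took 29.6% ± 5.11, 18.7% ± 3.13, 14.6% ± 1.29 and 12.7% ± 1.10. Tubb2b went from 0.90% ± 0.24 to 11.3% ± 0.99 and 11.7% ± 0.71 and then 7.56% ± 0.49. Tubb6 fell from 8.04% ± 1.14 through 6.10% ± 0.83 and 4.72% ± 0.54 to 4.2% ± 0.34. Over the 5 chosen beta genes alone, Tubb4b took 51.6% ± 4.69, 38.3% ± 2.17, 41.0% ± 1.82 and 59.1% ± 1.40. The summed level of all 8 beta genes was 316 ± 20.5 CPM per kb in early, 425 ± 56.4 in intermediate, 389 ± 5.95 in full and 328 ± 27.9 in BEC. With total counts only it was 208 ± 10.3, 445 ± 61.0, 468 ± 11.1 and 394 ± 34.3, so the order of intermediate and full turned and BEC stood well above early.

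**Figure D3:**
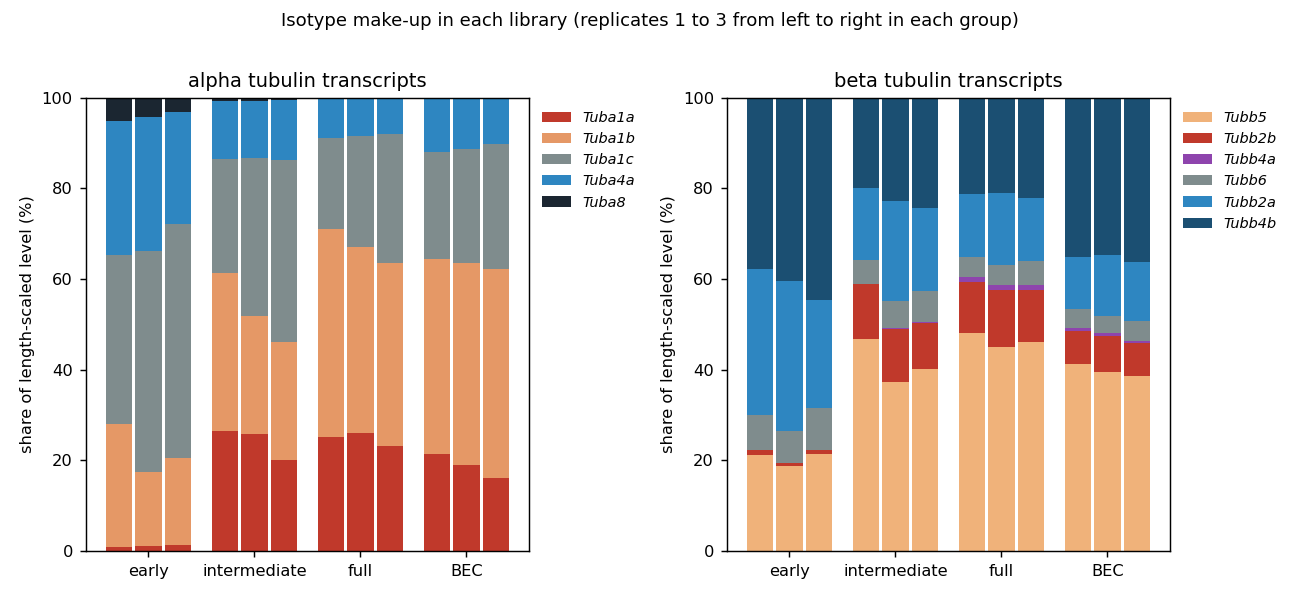
Share of the length-scaled level (vertical axis, %) that each alpha (left) and beta (right) tubulin gene takes in each of the 12 libraries, over all alpha or all beta genes; colours are genes and bars are replicates within a group. Tuba1a goes from 1.08% to 24.1% and Tubb5 from 20.4% to 41.4% of their pools between the early and intermediate group means.

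Gene counts of these isotypes carry an uncertainty from shared sequence. In the GRCm38 annotation, 65.9% of the 100-base windows of the longest Tuba1a transcript also occur in another gene, most often Tuba1c, and 73.0% for Tuba1b, 53.4% for Tuba1c, 36.9% for Tubb2a, 27.8% for Tubb2b and 30.6% for Tubb4b, against none for Tubb3 and Tubb6. How reads that match several genes were handled is not given in the sources used here. The rows of the pseudogenes and overlapping genes other than Stk16 that were looked up held 0 to 24 counts in each library. Gm17383, AC157548.1, Gm3226 and Gm14150, which share 50-base windows with Tuba1b and Tuba1c, were not among them. Nor was Gm20388, a gene that overlaps Tubb3 on the same strand but shares none of its windows.

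Over the 12 libraries, the log2 CPM of Tuba1a and Tubb2b had a Pearson r of 0.975, Tuba4a and Tuba8 of 0.926, and Tuba1b and Tuba4a of -0.906. These are descriptions over libraries that share the 4 group differences. Among 10906 other genes, Tuba1a was most like Marcksl1 (r = 0.991) and Gpsm1 (r = 0.990), and Tubb2b most like Anxa5 (r = 0.992) and Rgs4 (r = 0.989). Tuba8 was most like Ttc32 (r = 0.996) and Slc38a3 (r = 0.995), a glutamine transporter whose mean fell from 1754 CPM in early to 33.7 in BEC. The closest genes to Tuba1b were Kbtbd2 (r = 0.974) and Fgd1 (r = 0.969), to Tuba1c Akr1e1 (r = 0.973) and Ubac1 (r = 0.968), and to Tubb2a Phf23 (r = 0.955) and Nfu1 (r = 0.943). Those of Tubb4b were Sgf29 (r = 0.948) and Icmt (r = 0.944), and those of Tubb6 Pkdcc (r = 0.960) and Khdrbs3 (r = 0.956). By Spearman rank correlation the closest genes were Zfp260 and Zcchc8 for Tuba1a, and Hspb1 and Birc2 for Tubb2b. They also were other genes for Tuba8, Tubb4b and Tubb6. Kbtbd2, Akr1e1 and Phf23 stayed among the closest for Tuba1b, Tuba1c and Tubb2a.

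Among the 10 other tubulin genes looked up, 6 were tested. Tubb5 averaged 171 ± 15.1, 463 ± 28.0, 479 ± 10.6 and 344 ± 18.7 CPM from early to BEC (SD, n = 3). It rose at the first step (log2 1.44, SE 0.09, edgeR adjusted p = 3.65e-08) and fell from full to BEC (log2 -0.48, SE 0.09, edgeR adjusted p = 0.00186), as Tuba1a and Tubb2b did. Tubb4a, a beta tubulin of brain, had 2 counts over the 3 early libraries and then averaged 1.29 ± 0.07 CPM in intermediate, 9.46 ± 1.18 in full and 3.75 ± 0.60 in BEC. Scaled by library size, its 67 summed counts in intermediate were 23.3 times the 2 in early, which lie under the floor, with a counting interval from 6.19 to 196. It rose again to full (log2 2.87, SE 0.29, edgeR adjusted p = 4.02e-06) and fell to BEC (log2 -1.33, SE 0.26, edgeR adjusted p = 0.00186). Of the gamma tubulins, which seed microtubules, Tubg1 averaged 38.5 ± 3.37 CPM in early and 24.6 ± 4.98 in intermediate (log2 -0.65, SE 0.14, edgeR adjusted p = 0.00177, but 0.02 with total counts only). Tubg2 had 3 counts over the early libraries and then averaged 1.97 ± 0.46, 4.19 ± 0.65 and 3.73 ± 0.67 CPM in the later groups. Tubd1 and Tube1 did not pass at any neighbouring step with TMM factors, while with total counts only Tube1 passed at the first (edgeR adjusted p = 0.0292) and the second (0.0453), both upward. Tuba3a, Tuba3b, Tubal3 and Tubb1, the last a platelet isotype, were not tested.

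The genes that fold tubulin moved little between full and BEC and depended on scaling before. Of 22 tested, 2 rose and 6 fell from early to intermediate and 1 rose and 8 fell from intermediate to full, while total counts only gave 18 higher and 1 lower and 2 higher and 2 lower. In either direction 8 and 9 of the 22 were called, beside 54.4% and 40.7% of all genes, the first below and the second near that background. The list's median log2 fold changes were -0.14 and -0.22, against 0.06 and 0.01 over all genes. Ttc5, which recognises newly made tubulin when the cell limits tubulin mRNA, went from 20.9 ± 1.05 CPM in early to 38.1 ± 6.61 in intermediate (SD, n = 3; log2 0.87, SE 0.13, edgeR adjusted p = 5.47e-05). Tbcel, a factor that destabilises tubulin, went from 183 ± 17.2 to 98.6 ± 11.3 and 69.1 ± 2.90 CPM in full (log2 -0.89, SE 0.10, edgeR adjusted p = 4.60e-06, for the first step). The other named genes were Vbp1 (higher, log2 0.46) and Pfdn2 (log2 -0.59, but 0.08 with total counts only) at the first step, and Arl2 (higher, log2 0.76) and Tbca (log2 -0.50, but -0.30 and not called with total counts only) at the second. In BEC against full, 0 of 22 were called by edgeR, 1 had an unadjusted p under 0.05, DESeq2 called 0, and the replicate block 1.

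Among 22 tested genes for enzymes that modify tubulin, 13 rose and 2 fell from early to intermediate, 7 rose and 1 fell to full and 2 rose to BEC. With total counts only these were 20 higher and 0 lower, 11 higher and 0 lower, and 2 higher, and with the replicate block 3 rose to BEC. In either direction 15, 8 and 2 of the 22 were called, beside 54.4%, 40.7% and 21.3% of all genes, so the second count is near and the third below that background. The list's medians were 0.43, 0.18 and -0.02, against 0.06, 0.01 and 0.00 over all genes. Agbl5, which removes branching glutamates, went from 21.2 ± 1.88 to 41.7 ± 2.03 CPM at the first step (SD, n = 3; log2 0.98, SE 0.09, edgeR adjusted p = 1.09e-06). Ttll1, a glutamylase subunit, went from 7.46 ± 0.48 to 14.1 ± 0.84 CPM (log2 0.92, edgeR adjusted p = 4.79e-05). The deacetylases Sirt2 and Hdac6 fell there (log2 -0.38 and -0.28) but rose with total counts only (log2 0.28 and 0.38). Vash2, a tubulin detyrosinating enzyme, went from 3.72 ± 1.78 to 16.8 ± 2.68 CPM from intermediate to full (log2 2.18, SE 0.29, edgeR adjusted p = 4.61e-05). Agbl2, a deglutamylase of the same family as Agbl5, averaged 0.864 ± 0.105, 7.14 ± 1.66 and 18.3 ± 1.07 CPM in intermediate, full and BEC (log2 3.03, edgeR adjusted p = 2.31e-06, and log2 1.36, edgeR adjusted p = 0.000625). Agbl3 rose from full to BEC (log2 0.58, edgeR adjusted p = 0.0218). The count of 2 in BEC against full ranged from 1 to 4 when single libraries were left out: 4 without early replicate 1, and 1 without full replicate 3, BEC replicate 2 or BEC replicate 3.

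Of 40 tested genes for proteins that bind microtubules, 26 rose and 3 fell from early to intermediate, 13 rose and 5 fell to full, and 4 rose and 9 fell to BEC. Scaling by total counts gave 32 higher and 2 lower at the first step and 20 higher and 4 lower at the second. In either direction 29, 18 and 13 of the 40 were called (17 in the last with the replicate block), beside 54.4%, 40.7% and 21.3% of all genes, and the second count is near that background. The list's medians were 0.51, 0.19 and -0.04, against 0.06, 0.01 and 0.00 over all genes. Several of them are known from neurons. Dclk1, a doublecortin-like kinase, averaged 0.145 ± 0.137, 6.97 ± 2.49, 31.7 ± 7.03 and 93.2 ± 17.2 CPM from early to BEC (SD, n = 3), and rose at each step (edgeR adjusted p = 1.38e-06, 1.10e-05 and 0.000181). Map1b averaged 0.193 ± 0.039, 5.53 ± 3.53, 48.3 ± 10.3 and 67.1 ± 5.11 CPM. Map2 had 0 counts in the 3 early libraries, 23 to 28 in intermediate and 578 to 719 in full (log2 4.19, SE 0.17, edgeR adjusted p = 2.37e-08, for full against intermediate). Mapt, which encodes tau, fell instead, from 14.4 ± 3.96 CPM in early to 6.11 ± 0.78 and 1.98 ± 0.44 (log2 -1.23 and -1.62, edgeR adjusted p = 0.000521 and 0.000171). Mtus1 fell at each step, from 235 ± 10.3 through 91.0 ± 8.57 and 42.6 ± 6.69 to 23.7 ± 1.37 CPM. Tppp, a microtubule bundling protein, fell from intermediate to full (log2 -2.46), Eml1 rose from full to BEC (log2 1.5), and Tppp3 fell there (log2 -1.29).

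Genes of the primary cilium, which cholangiocytes carry and hepatocytes lack, were called higher far more often than lower at the 3 steps, though at the last step most were not called. Of 46 tested, 38 rose and 1 fell from early to intermediate, 29 rose and 1 fell to full, and 18 rose and 1 fell to BEC, where 27 did not pass. Of all genes, 28.7%, 20.8% and 10.7% were called higher at these steps. The list's median log2 fold changes were 1.11, 0.39 and 0.31, against 0.06, 0.01 and 0.00 over all genes. The called count in BEC against full, 19, was 24 with the replicate block, 11 without BEC replicate 2 and 12 without BEC replicate 3. Dync2li1, part of the retrograde ciliary motor, went from 1.63 ± 0.21 CPM in early to 22.8 ± 1.43, 37.9 ± 2.51 and 54.7 ± 1.69 (SD, n = 3; log2 3.80, SE 0.13, edgeR adjusted p = 2.90e-10, for the first step). Bicc1, an RNA-binding protein whose loss gives kidney cysts, went from 93.9 ± 12.5 to 668 ± 32.6 CPM at the first step (log2 2.83, SE 0.11, edgeR adjusted p = 6.84e-10). Nphp4, of the ciliary transition zone, averaged 0.266 ± 0.274, 5.41 ± 1.02 and 15.7 ± 1.94 CPM in the last 3 groups. Dync2h1, the motor's heavy chain, rose from intermediate to full (log2 0.90) and Anks6 from full to BEC (log2 0.77), where the kinase Nek8 fell (log2 -0.54). Ift20, which also serves at the Golgi, was the gene that fell at the first step (log2 -0.70, edgeR adjusted p = 0.000534, but -0.03 and not called with total counts only).

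**Figure D4:**
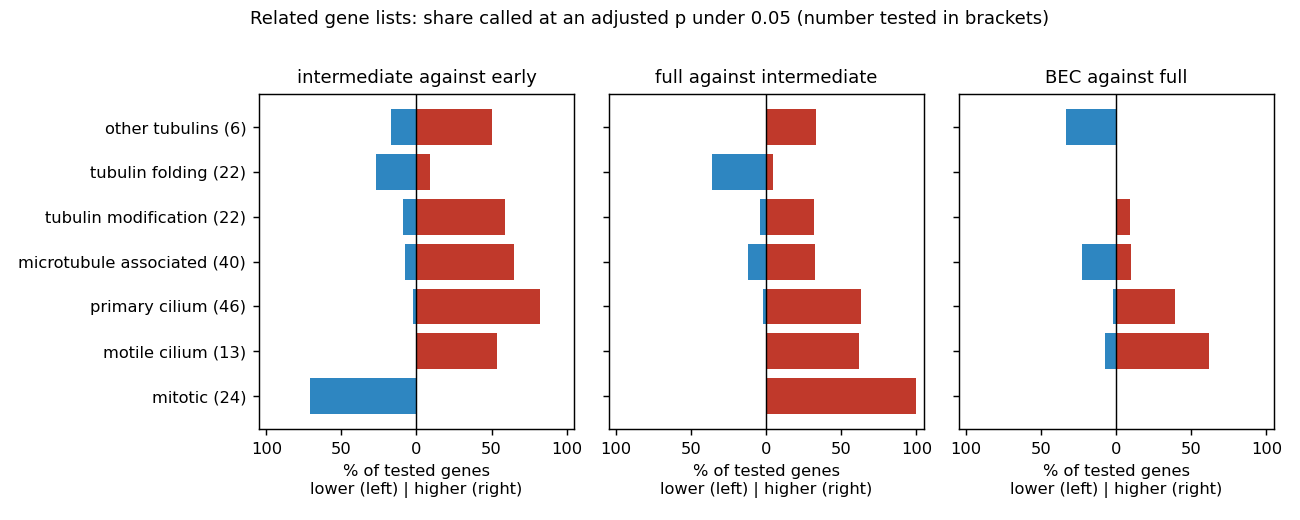
Share of tested genes (horizontal axis, %) called lower (left, blue) or higher (right, red) at an adjusted p under 0.05 in each related list, for the 3 neighbouring steps with TMM factors. Primary cilium genes are mostly called higher at the first step (38 of 46) and all 24 mitotic genes at the second, while the folding list, with 2 higher and 6 lower calls at the first step, has 18 higher and 1 lower with total counts only.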

How the data were processed

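The deposited values were raw counts for each gene symbol, used as the authors gave them, and a second table of signal, which the authors made by dividing the counts by a size factor per library and which was not tested. Alignment with STAR 2.7.10b, counting with featureCounts 2.0.1, use of DESeq2 and build GRCm39 come from the submitters' processing notes. The annotation, strandedness and treatment of reads matching several genes are not given in the sources used here. Groups were taken from the sample titles and sort gates. The table had 0 columns without a sample and 0 rows without a gene name.

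Tests ran in edgeR 4.0.16 (with limma 3.58.1) and, as an alternative, DESeq2 1.42.0, under R 4.3.3. Figures were drawn in matplotlib 3.10.9 under Python 3.11.15. The filter filterByExpr left 16210 genes, TMM factors scaled the libraries, and 1 fit over all 12 libraries with a term per group gave edgeR's quasi-likelihood tests, with Benjamini-Hochberg adjusted p-values over all genes and calls under 0.05. The common biological coefficient of variation was 14.8%. The script was tested on simulated counts. The members and the lists were chosen with earlier results of these data known.

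Named genes were the 10 members, other tubulins with at least 1 CPM in a group mean, and, in each related list and neighbouring step, up to 2 genes in each direction with the largest change among called genes of at least 5 CPM in the higher group without overlap of replicates. The most similar genes were the 2 with the highest Pearson r of log2 CPM (prior count 2) among genes of at least 10 CPM in the highest group mean. Those of Tuba4a are not reported here. Same-numbered replicates deviated together in the 3 neighbouring steps (r from 0.121 to 0.322), so the number was taken as pairing there, and the blocked value stands beside a member's result where it changed the call. In BEC against early (0.0442 to 0.145) and full against early (0.0960 to 0.209), it was not. Alternatives were total counts only, RLE factors, no filter, a mean of at least 50 counts, the replicate block, the 6 libraries compared, DESeq2 and leaving out each library. For shares they were the union of exons or no division by length, and for the most similar genes Spearman rank correlation. Gene lengths, shared windows and overlaps came from the GENCODE annotation of GRCm38, and promoters from RefSeq on GRCm38.p6.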

Additional observations from a re-analysis of the deposited data

How the results depend on the processing

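Calls of Tuba1a, Tuba1b, Tuba4a, Tuba8 and Tubb2b kept their direction and passed the threshold under every alternative that gave a value. With total counts only, the following log2 fold changes turned sign: 0.14 for Tuba1c, 0.45 for Tubb2a and 0.23 for Tubb4b in intermediate against early, 0.13 for Tubb2b and 0.012 for Tubb4b in full against intermediate, 0.71 for Tubb4b in BEC against early, and 0.14 for Tubb2a, 0.24 for Tubb4b and 0.40 for Tubb6 in full against early. That scaling by construction leaves out the TMM factors, which moves the median of all genes from 0.06 to 0.72 at the first step. Leaving out 1 library moved the called members to between 6 and 7 in intermediate against early, 3 and 7 in full against intermediate (7 without intermediate replicate 1), 3 and 5 in BEC against full, 8 and 8 in BEC against early, 8 and 9 in full against early, and 9 and 9 among the 4 groups. It turned the sign of uncalled values: Tuba1a ran from -0.060 to 0.26 and Tubb2b from -0.18 to 0.063 in full against intermediate, and Tubb6 from -0.075 to 0.21 in intermediate against early. With the replicate block, 7, 6, 5, 8, 9 and 9 members were called in the same order, against 6, 4, 4, 8, 9 and 9 without it, and it lost no member's call. The mitotic list's count of 17 in intermediate against early was 5 with total counts only, 7 without early replicate 3 and 10 without intermediate replicate 2. Tuba8 in BEC against full could not be fitted on the 6 libraries alone. Shares moved with the length used. Tuba4a in early took 24.9% with the union of exons and 36.3% without division by length, in place of 27.9%. With these settings Tuba1a still went from 1.25% to 26.6% and from 0.892% to 22.0% between early and intermediate. With the denominator of all alpha or all beta genes included, 49 share values moved by more than 1 SD and 71 did not. Depth limits Tubb3, at 0 to 2 counts, and Tuba8 in BEC, at 2 to 5.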

Other observations

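Genes of motile cilia were also mostly higher in the later groups. Of 13 tested, 7 rose from early to intermediate, 8 rose from intermediate to full, and 8 rose and 1 fell from full to BEC, with median log2 fold changes of 2.03, 1.08 and 1.19 (0.06, 0.01 and 0.00 over all genes), and edgeR and DESeq2 each called 0 lower at the first and second steps, as did edgeR at an unadjusted p under 0.05. Of all genes 54.4%, 40.7% and 21.3% were called in either direction, so the first count is near that background. With total counts only, 11 rose at the first step. Several are at low levels. Foxj1, a transcription factor of ciliated cells, averaged 1.32 ± 0.82, 53.5 ± 9.46, 113 ± 9.86 and 211 ± 50 CPM from early to BEC (SD, n = 3), and rose at each step (edgeR adjusted p = 1.26e-08, 0.000903 and 0.00584). Dnah5, an outer arm dynein, went from 2.13 ± 1.28 to 20.1 ± 5.05 and 42.0 ± 10.9 CPM and was the gene that fell to BEC, to 14.6 ± 1.82 CPM (log2 -1.52, SE 0.28, edgeR adjusted p = 0.00118). Spag6l had 0 counts in early and averaged 1.44 ± 0.27, 5.07 ± 0.45 and 13.2 ± 2.79 CPM in the later groups. Ccdc39 and Ccdc40, which set the spacing of axonemal arms, rose from intermediate to full (log2 1.16 and 1.67) and from full to BEC (log2 0.59 and 1.51, in that order).

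Mitotic genes, whose products work on spindle microtubules, followed another course. Of 24 tested, 17 fell from early to intermediate, beside 25.7% of all genes, and 24 rose from intermediate to full, beside 20.8%, with median log2 fold changes of -1.51 and 3.19, against 0.06 and 0.01 over all genes; the first count was 5 with total counts only. In BEC against full 0 were called by edgeR, 1 had an unadjusted p under 0.05, DESeq2 called 0, and edgeR with the replicate block called 1 higher. Kif23, a kinesin of the cell division midzone, averaged 1.21 ± 0.70, 1.02 ± 0.30, 22.3 ± 3.79 and 32.4 ± 4.09 CPM from early to BEC (SD, n = 3). Birc5 averaged 5.20 ± 1.44, 0.803 ± 0.327, 6.01 ± 0.67 and 6.64 ± 1.21 CPM, and Ccnb2 8.80 ± 5.05, 1.29 ± 0.11, 10.1 ± 0.31 and 10.9 ± 2.19 CPM.

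Replicate 1 was the lowest library of its group for Tuba1c and for Tubb4b in 4 of 4 groups, a pattern noticed after the data were seen and not tested.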
